A study of Mus musculus with 2 samples.

Results

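The proteasome genes described here are the 49 of 21887 protein-coding mouse genes whose symbol is Psm, a letter from a to g and a digit, with Psmb8 and Psmb9 left out. The symbol rule used no measured value. Of the 49, 3 encode tissue-restricted subunits that replace a standard subunit: Psmb10, Psmb11 and Psma8. There are 31 standard subunits, 7 assembly chaperones and 6 activators or inhibitors, and 2 genes (Psmc3ip and Psme3ip1) share the name pattern but encode no subunit. Psme2b, a gene of 1066 bp named after Psme2, is counted with the activators.

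The assay was ATAC-seq, which maps open chromatin as the DNA that Tn5 transposase can cut and tag, in hepatic stellate cells, the retinoid-storing pericytes of the liver. Replicates A and B are the 2 samples of the only group, so no condition was set against another. Both came from healthy mice of strain C57BL6/JBomTac on chow that carried the transgene Tg(Lrat-cre)1Rshw and the allele Gt(ROSA)26Sortm1(mCherry-Rpl10a-Flop)Kra on a B6.Cg background, and nuclei were sorted on mCherry-RPL10A. The tag depends on Lrat-cre, so the sort was designed to leave out cells in which it was never active. Purity of the sort was not measured here. Age and sex are not given in the labels, and no label states whether A and B came from separate animals. Entries of B have names that start with a word for oil although its label gives chow and control, and whether its treatment differed cannot be told from the files.

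Replicate A holds 36577 peak entries and replicate B 28794, and 23452 entries of A (64.1%) overlap an entry of B by at least 1 bp and are called replicated. The lists hold no read counts, so the depth behind a peak is unknown, and intervals on shares cover counting error only. Of the stellate markers, 10 of 10 had a replicated peak within 1 kb of a gene end, against 41.9% of all protein-coding genes. Such a peak was present at 1 of 6 hepatocyte markers (Cyp2e1) and 1 of 5 endothelial markers (Kdr). It was present at 0 of 5 Kupffer and myeloid markers and 0 of 4 cholangiocyte markers. The marker lists were chosen with earlier results of these data known. Alb, a defining hepatocyte gene, had no entry of either list at its ends.

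The proteasome degrades proteins tagged with ubiquitin. Its 20S core is a barrel of alpha and beta subunits, of which some beta subunits cut peptide bonds, and its 19S cap holds a ring of ATPases that unfold the substrate and non-ATPase subunits that bind and remove ubiquitin. Dedicated chaperones assemble both parts, and activators such as PA28 can take the place of the cap. Psmb10 replaces Psmb7 in the immunoproteasome, which interferon induces, Psmb11 replaces Psmb5 in the thymic cortex, and Psma8 replaces Psma7 in the testis.

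The promoters printed here show the DNA to which the peaks are related below. They are those of subunits that replace one another, and of the members with the highest (Psmd11) and lowest (Psma3) gene-end fold enrichment in A. The lowest value, at Psma3, belongs to a peak outside its printed promoter. The peak over that promoter had 15.6 in A and 13.9 in B. Each window runs from 250 bases before to 50 after a start annotated by RefSeq, in build GRCm38.p6, 5′ to 3′ on the gene's strand. Capitals mark matches, on either strand, to any of 4 motifs: TGACNNNGC (the core of the antioxidant response element bound by NFE2L1 and NFE2L2), CCAAT (the box bound by NF-Y), CGGAAG (the core bound by ETS factors) and TATAAA (the TATA box). The window of Psmb10 lies at chr8:105938343-105938642 (minus strand), that of Psmb11 at chr14:54625060-54625359 (plus), that of Psmb5 at chr14:54617946-54618245 (minus), that of Psma7 at chr2:180042415-180042714 (minus), that of Psmd11 at chr11:80428365-80428664 (plus) and that of Psma3 at chr12:70974373-70974672 (plus).
Psmb10: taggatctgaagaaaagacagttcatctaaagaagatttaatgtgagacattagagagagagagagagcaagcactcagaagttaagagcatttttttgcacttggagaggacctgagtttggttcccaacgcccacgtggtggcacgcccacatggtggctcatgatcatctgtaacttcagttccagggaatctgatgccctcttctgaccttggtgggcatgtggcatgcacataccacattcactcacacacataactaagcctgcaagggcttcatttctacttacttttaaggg
Psmb11: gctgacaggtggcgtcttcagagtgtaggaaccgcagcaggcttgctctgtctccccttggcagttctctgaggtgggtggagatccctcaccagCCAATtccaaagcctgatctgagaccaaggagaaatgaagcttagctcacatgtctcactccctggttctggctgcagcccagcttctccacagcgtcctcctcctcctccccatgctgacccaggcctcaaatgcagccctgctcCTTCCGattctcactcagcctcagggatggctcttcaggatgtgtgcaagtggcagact
Psmb5: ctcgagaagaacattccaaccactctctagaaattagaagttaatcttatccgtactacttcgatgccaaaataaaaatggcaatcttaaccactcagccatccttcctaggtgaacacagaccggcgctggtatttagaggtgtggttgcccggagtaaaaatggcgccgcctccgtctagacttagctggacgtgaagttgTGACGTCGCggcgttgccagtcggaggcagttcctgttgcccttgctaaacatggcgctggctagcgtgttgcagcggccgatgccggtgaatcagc
Psma7: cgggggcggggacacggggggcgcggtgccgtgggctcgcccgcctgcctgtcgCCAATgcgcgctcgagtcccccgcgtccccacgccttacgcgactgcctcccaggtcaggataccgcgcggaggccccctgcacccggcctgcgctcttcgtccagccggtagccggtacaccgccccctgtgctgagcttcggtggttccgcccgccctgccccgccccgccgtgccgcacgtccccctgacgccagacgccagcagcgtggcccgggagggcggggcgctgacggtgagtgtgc
Psmd11: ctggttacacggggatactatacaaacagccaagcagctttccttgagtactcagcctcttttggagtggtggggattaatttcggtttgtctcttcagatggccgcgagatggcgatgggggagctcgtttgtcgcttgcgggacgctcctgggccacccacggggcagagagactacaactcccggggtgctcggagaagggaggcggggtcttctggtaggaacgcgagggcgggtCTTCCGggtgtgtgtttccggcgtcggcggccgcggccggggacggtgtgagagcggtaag
Psma3: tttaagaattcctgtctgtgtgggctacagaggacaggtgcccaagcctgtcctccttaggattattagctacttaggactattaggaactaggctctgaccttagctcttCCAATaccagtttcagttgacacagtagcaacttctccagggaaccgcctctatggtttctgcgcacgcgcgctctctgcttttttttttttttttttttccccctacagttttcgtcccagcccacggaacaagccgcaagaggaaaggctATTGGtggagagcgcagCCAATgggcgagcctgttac
The Psmb10 and Psmb11 windows hold 3 and 4 CpG dinucleotides, and no replicated peak overlaps either. The other windows hold 20 CpGs at Psmb5, 41 at Psma7, 26 at Psmd11 and 10 at Psma3, and a replicated peak overlaps each of them. The median was 19 CpGs over the 45 windows of 41 members and 13 over all 21263 windows of protein-coding genes. Among windows overlapped by a replicated peak it was 20 over the 35 of members and 23 over all 7943, so there the members had fewer.

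Most proteasome genes were open at a gene end in both replicates. A replicated peak lay within 1 kb of an end of 39 of the 49 members, which is 79.6% (Wilson 95% interval 66.4 to 88.5%), against 41.9% of all protein-coding genes (9180 of 21887). Taken singly, an entry of A lay at an end of 42 members (85.7%, against 47.0% of all genes), and an entry of B at an end of 40 (81.6%, against 44.8% of all genes). Proteasome genes are shorter than most, with a median length of 12293 bp against 17169 bp. Among genes in the members' middle length range of 6487 to 22556 bp, 22 of 25 members (88.0%) had such a peak, against 48.0% of all such genes. Since nuclei were profiled in bulk, a site open in few nuclei and a site weakly open in all of them cannot be told apart.

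The tissue-restricted and the standard subunits differed in this count. None of the 3 tissue-restricted subunits had a replicated gene-end peak, a share of 0% with a Wilson interval of 0 to 56.1%. That interval includes the 41.9% found over all protein-coding genes. Of the 31 standard subunits 28 had such a peak, which is 90.3% (75.1 to 96.7%). With only 3 tissue-restricted genes, and with peaks known only as called or not called, no test of this contrast was made. By class the peak was present at 6 of 7 20S alpha subunits, 7 of 7 20S beta subunits, 4 of 6 19S ATPases and 11 of 11 19S non-ATPases. It was present at 6 of 7 assembly chaperones, 3 of 6 activators or inhibitors and both genes that encode no subunit.

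**Figure D1:**
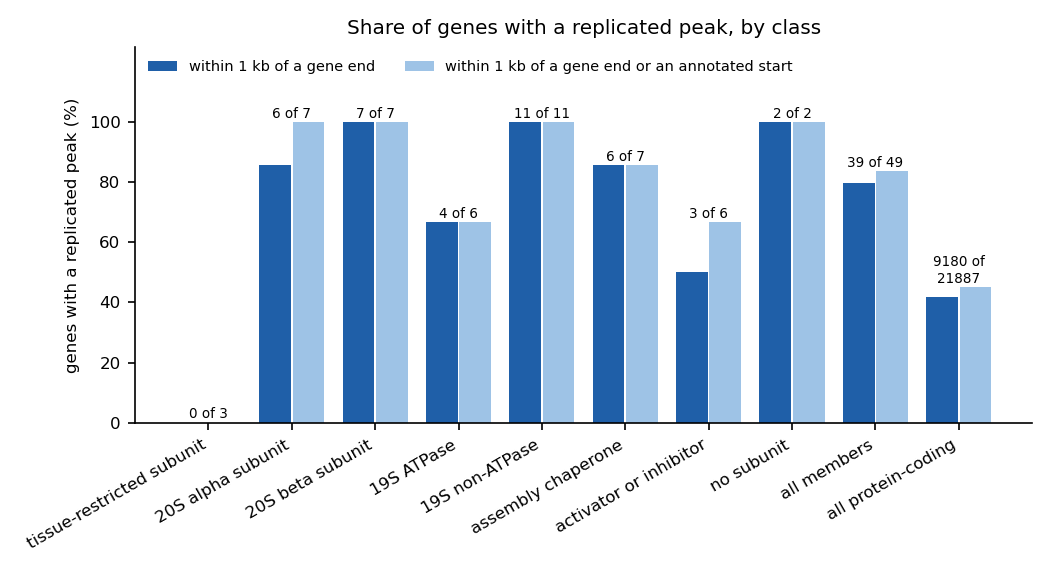
Share of genes in percent with a replicated peak within 1 kb of a gene end (dark bars) or of a gene end or annotated start (light bars), by class, with all protein-coding genes on the right. Counts above the bars are for gene ends: the bar of the tissue-restricted subunits stands at 0 of 3, and those of the 20S beta and 19S non-ATPase subunits at 7 of 7 and 11 of 11.

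Psmb10, the interferon-inducible replacement of Psmb7, was the only tissue-restricted subunit with a peak inside its gene. Its gene lies at chr8:105935728-105938392 on the minus strand. A replicated peak at chr8:105936977-105937287 had a fold enrichment, the authors' peak caller's ratio over local background, of 16.2 in A and 15.4 in B. These values equal or exceed those of 85.5% of the entries of A and 86.4% of those of B. The summit lay 1267 bp downstream of the annotated start in A and 1226 bp in B, inside the gene, and the peak missed the 1 kb windows of the 2 gene ends by 249 and 105 bp. Thus the annotated start of Psmb10 was without a peak while its body held one, and windows of 2500 bp would count it. Whether a further start lies under the body peak was not tested. The standard subunit Psmb7 had a replicated peak at its higher end, with 13.8 in A and 8.87 in B.

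Psmb11, the thymic subunit, lies at chr14:54625310-54629556, 7314 bp from Psmb5, the gene of the subunit that it replaces. Neither list had an entry at its ends or in its body. A locus here means the gene body plus 20 kb to each side, and that of Psmb11 held 2 replicated peaks. One was the promoter peak of Psmb5 at chr14:54617934-54618083, with 8.54 in A and 8.09 in B, and the other lay at ends of Cdh24 and Acin1, with 7.79 in A and 7.87 in B. Of these neighbours, Psmb11 was thus without a peak at its start and Psmb5 had one. Psma8, the testis subunit, had no entry of either list in its body or within 20 kb, although its gene spans 56167 bp. Psma7, the subunit it replaces, had a replicated peak over its start with 9.47 in A and 8.88 in B.

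**Figure D2:**
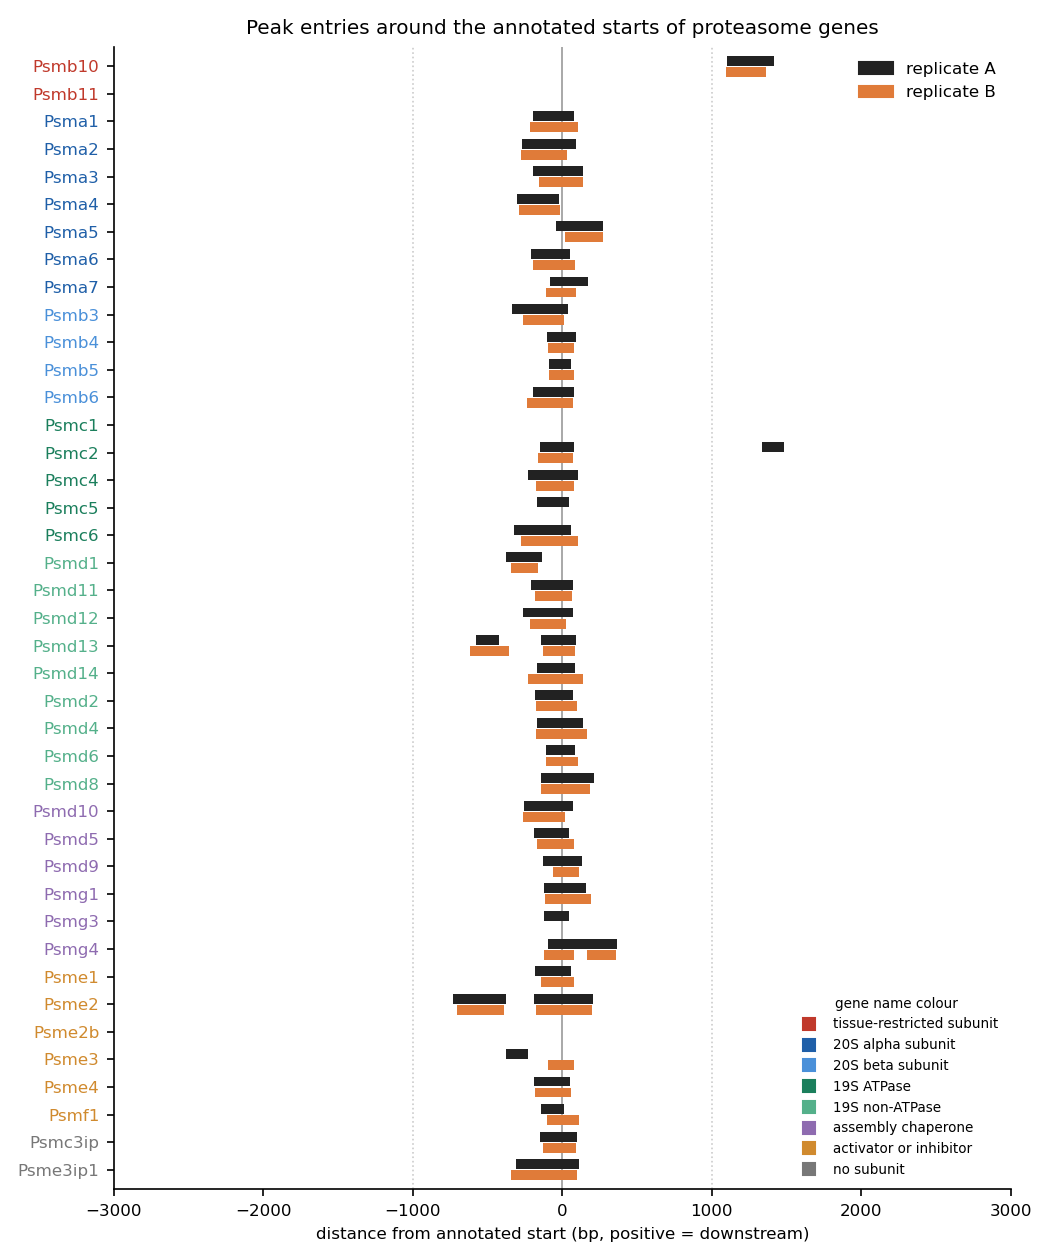
Peak entries of replicates A (black) and B (orange) within 3 kb of the annotated start, in bp with downstream positive, for the 41 members with an annotated start, drawn at the start nearest to a replicated peak where RefSeq gives several. Most genes have an entry of both lists at the start, while those of Psmb10 lie over 1 kb downstream and Psmb11, Psmc1 and Psme2b have none in view.

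Among the alpha subunits, which form the outer rings of the core, Psma4 had the strongest gene-end peak, with 22.8-fold enrichment in A and 20.5-fold in B. That peak also lies at ends of Hykk and AY074887. Psma1 had 22.6 in A and 17.8 in B. Psma3 had the weakest by the gene-end rule, with 7.93 in A and 9.39 in B. That peak lies at the lower end of the gene as the gene table draws it, with its summit at -5936 bp from the annotated start of the printed window, where negative is upstream. A stronger replicated peak at chr12:70974427-70974762 covered the annotated start, with 15.6 in A and 13.9 in B, and counts as a peak in the gene body. Psma6 was the alpha subunit without a gene-end peak. Its replicated peak at chr12:55398614-55398876 covered a second annotated start inside the gene, with 13.8 in A and 19.7 in B. Counted at gene ends or annotated starts, 7 of 7 alpha subunits were open in both replicates.

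All 7 beta subunits were open in both replicates. The deposited fold enrichment was higher in A than in B at all 7, and at 67.8% of all genes with a gene-end peak, with no scaling between the lists. Psmb6, whose product cuts after acidic residues once assembled, had the strongest peak, with 19.4 in A and 14.2 in B. Psmb5, whose product has the chymotrypsin-like activity, had the weakest, with 8.54 in A and 8.09 in B. Psmb7, the gene of the remaining catalytic subunit, lay at the class median in A, with 13.8 in A and 8.87 in B. Over the class the fold enrichment ran from 8.54 to 19.4 in A with a median of 13.8, and from 8.09 to 14.2 in B with a median of 10.0.

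The 19S ATPases held 2 of the 3 standard subunits without a replicated gene-end peak. Psmc3 had the strongest peak of the class, with 21.6 in A and 17.1 in B, and Psmc6 had 19.03 in A and 20.4 in B. Psmc2 had the weakest by A, with 11.6 in A and 14.3 in B, and its peak also lies at an end of Dnajc2. Psmc5 had an entry over its start in A alone, at chr11:106256016-106256229, with a fold enrichment of 15.6, equal to or above 83.6% of the entries of A. Replicate B had no entry at either end of Psmc5. Psmc1 had no entry of either list at its ends, and the single replicated peak of its locus lay 4.60 kb outside the gene, with 8.15 in A and 7.49 in B. So 1 of the 6 ATPase genes was called open at its start in A and not in B, and 1 in neither list.

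The 11 non-ATPase genes of the cap were open at an end in both replicates, and they held the highest values in A. Psmd11, a scaffold subunit, had 27.1 in A and 17.96 in B, which in A equals or exceeds 99.7% of all entries. Psmd4, a ubiquitin receptor, had 24.7 in A and 16.7 in B. Psmd14, the deubiquitinase that removes the ubiquitin chain, had 11.3 in A and 8.53 in B. Psmd6 had the lowest value in A, with 11.0 in A and 12.2 in B. It was the only gene of its class whose strongest peak by A had the higher value in B. Psmd13 had 2 replicated peaks at its start side. The stronger by A had 14.6 in A and 8.72 in B, and the other had 7.54 in A and 11.6 in B.

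Among the assembly chaperones, Psmd10 (gankyrin) had the strongest peak, with 22.3 in A and 17.2 in B. Psmd9 had the weakest, with 9.34 in A and 6.40 in B, the lowest value of any member in B. Psmg3 had an entry over its start in A alone, with 10.3 in A, and no replicated peak in its locus. The remaining chaperone genes Psmd5, Psmg1, Psmg2 and Psmg4 lay between, at 9.86 to 12.9 in A and 8.36 to 15.7 in B. Psmg2 had a further replicated gene-end peak, with 7.01 in A and 10.6 in B. The chaperone genes were thus open at an end in both lists, apart from Psmg3.

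The activators and the inhibitor were the class with the most exceptions after the tissue-restricted subunits. Psme1 and Psme2 encode the interferon-inducible PA28, and both were open in both replicates, Psme1 with 11.8 in A and 15.2 in B. Psme2 had 15.9 in A and 14.3 in B. Psme4, which encodes the activator PA200, had the highest value in A, with 17.0 in A and 12.4 in B. Psme3, which encodes the nuclear PA28gamma, had an entry in each list near its start that did not meet: the entry of A had 6.15 and ended 131 bp before that of B, which had 8.80. Psmf1, which encodes the inhibitor PI31, had a replicated peak at an annotated start inside the gene, with 8.76 in A and 10.9 in B. Psme2b had no replicated peak in its locus. With annotated starts counted as well, 4 of 6 genes of this class were open in both replicates. The genes that encode no subunit were Psme3ip1, whose product binds PA28gamma, with 19.9 in A and 16.4 in B, and Psmc3ip, a meiotic recombination gene, with 19.4 in A and 12.6 in B.

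**Figure D3:**
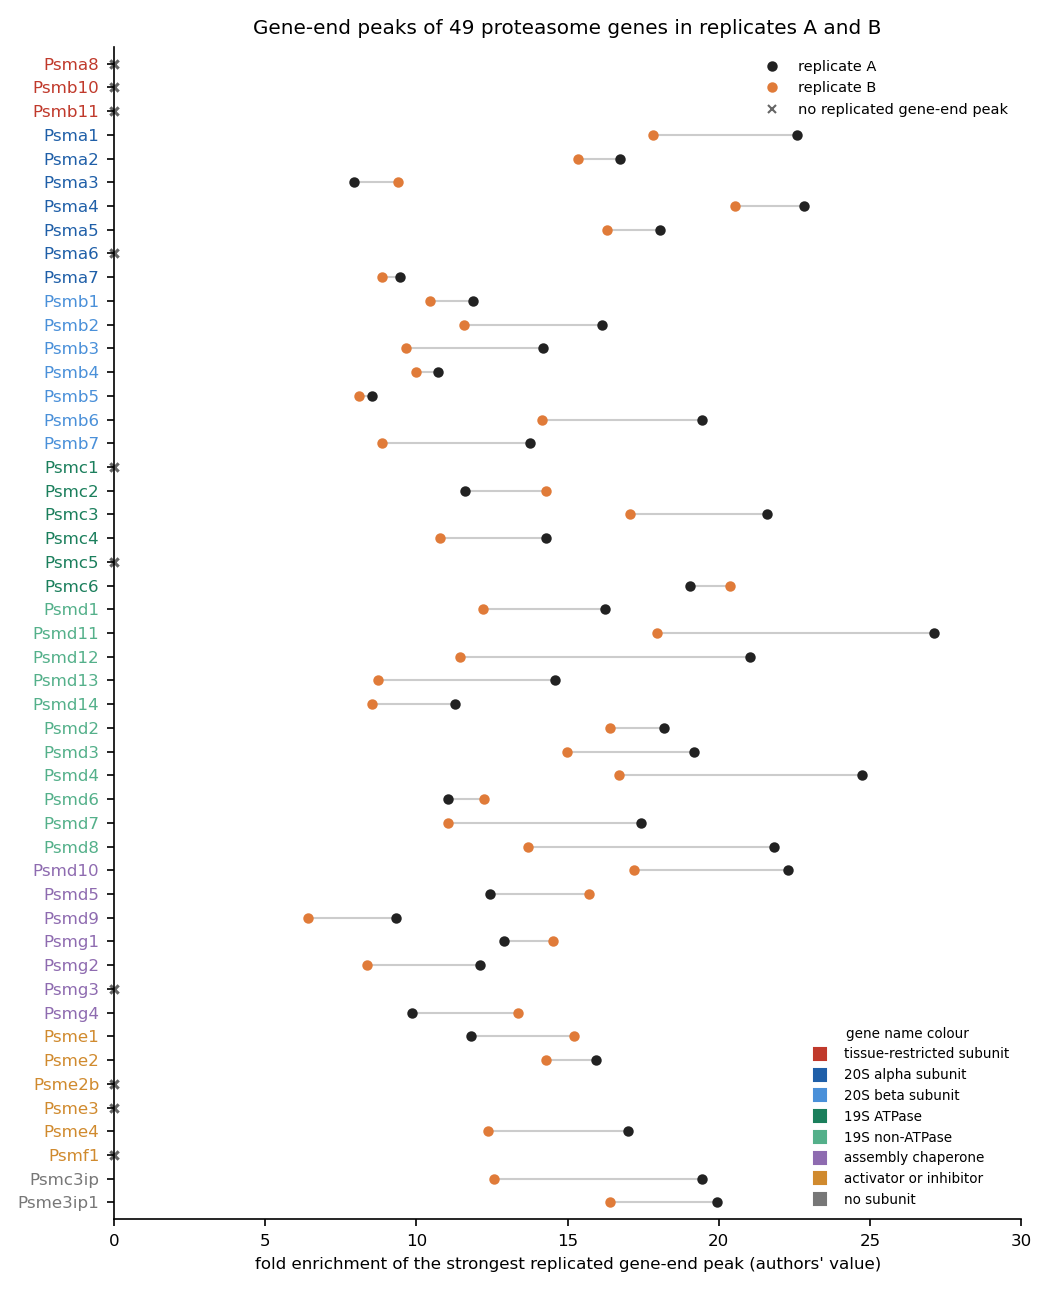
Fold enrichment (the authors' value) of the strongest replicated gene-end peak of each of the 49 members in replicates A (black) and B (orange), with crosses at 0 for the 10 members without such a peak. The values run from 7.93 (Psma3) to 27.1 (Psmd11) in A and from 6.40 (Psmd9) to 20.5 (Psma4) in B, and the 3 tissue-restricted subunits at the top are all crosses.

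Where a member had a gene-end peak, its strength was close to that at other genes. Over the 39 members with a gene-end peak, the median fold enrichment of the strongest one was 16.1 in A and 13.4 in B, against 15.2 in A and 13.7 in B over the 9180 genes with such a peak. In A, 25 of the 39 (64.1%) were above the 75th percentile of fold enrichment in the list, against 61.7% of all genes with a peak. In B, 20 of the 39 (51.3%) were above it, against 56.1%. A peak was also at an end of another protein-coding gene in 11 of the 39 (28.2%), against 28.5%, among them Psma7 with Ss18l1, Psma2 with Mrpl32 and Psmd13 with Sirt3.

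The peaks sat on the start of the gene. RefSeq promoter windows give the start of 41 members and of 17492 protein-coding genes, and with these a replicated peak lay within 1 kb of an annotated start in 34 of 41 members (82.9%), against 44.2% of all such genes. At the end on the start side the share was 32 of 41 members (78.0%), against 41.2%. At the end away from the start it was 0 of 41, against 3.85%. Counting a gene end or an annotated start gave 41 of 49 members (83.7%), against 45.1% of all genes. Each of the 39 members had its gene-end peaks at 1 end only. The same share over all genes was not computed, so this count is not a trait of the members.

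The summit was close to the start as well. In A its median distance was 49 bp over the 32 members with a known start and a gene-end peak, all at the start side. Over the 7476 protein-coding genes with a known start and a peak at either end it was 85 bp. These include genes with a peak only at the end away from the start, since 7204 had a peak at the start side. The summit in A lay within 250 bp of the start in 30 of the 32 members (93.8%), against 78.0% of the 7476 genes. The exceptions were Psma3, described above, and Psmd1, with its summit at -269 bp. The summit lay upstream of the start in 25 of the 32 (78.1%), close to the 77.5% over all such genes, and downstream in 5 (15.6%, against 22.2%). The median width of these peaks in A was 261 bp over the 39 members, against 293 bp over all genes with a gene-end peak.

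Most replicated peaks in proteasome loci lay at the ends of genes. A replicated peak lay in the locus of 46 of the 49 members (93.9%), against 64.6% of all protein-coding genes, and Psma8, Psmg3 and Psme2b had none. The median was 2 per locus, against 1 over all genes. Counted once for each locus it lies in, the members had 93 locus peaks, of which 45.2% were at an end of the gene itself, against 30.6% over all genes. A further 34.4% were at an end of another gene, against 25.8%. There were 4 (4.30%) in the gene body away from all ends, against 24.1%, and 15 (16.1%) in the flanks away from all ends, against 19.5%.

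The members are shorter than most genes and have more neighbours, and the part of either in these shares was not tested. Per gene, the 49 members averaged 0.0816 peaks in the body away from all ends, against 0.125 among genes in the members' middle length range and 0.375 over all genes. The 49 members include genes outside that range, so these sets are not of like length. For the flanks the averages were 0.306 in the 49 members, 0.358 in genes of the middle length range and 0.303 in all genes. The number of flank peaks per gene was thus close to that over all genes although their share was lower. The members had a mean of 2.16 other protein-coding genes in the locus, against 1.63 over all genes. The 4 body peaks were those of Psmb10, Psma3, Psma6 and Psmf1, and 3 of them lay at an annotated start. The peak of Psmb10 was thus the only one away from both. Psmb10 (2665 bp) is shorter than the middle length range, and Psma3 (26595 bp), Psma6 (34238 bp) and Psmf1 (28138 bp) are longer. For 35 of the 49 members (71.4%) no replicated peak lay away from all gene ends, against 66.5% of all genes, and in the middle length range it was 72.0% of members against 68.4% of genes.

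**Figure D4:**
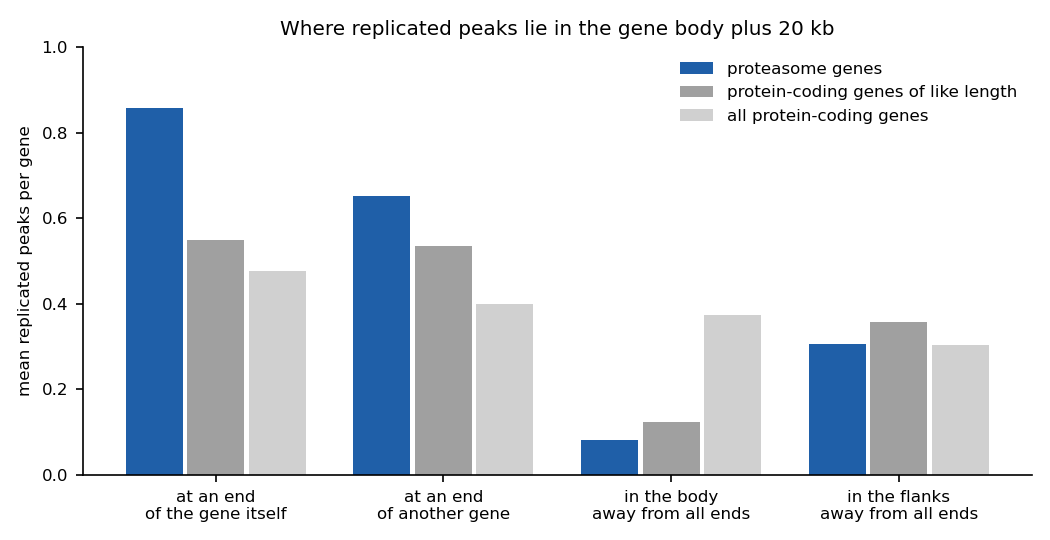
Mean replicated peaks per gene in the gene body plus 20 kb, by position. Bars are for the 49 proteasome genes of any length, for protein-coding genes in the members' middle length range and for all protein-coding genes. Proteasome genes have the highest bar at their own ends (0.857, against 0.550 and 0.476) and the lowest in the body away from all ends (0.0816, against 0.125 and 0.375).

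The loci with most replicated peaks were those of Psme1, Psme2 and Psma3 with 5 each, followed by Psmc6, Psmd9 and Psmb10 with 4 each. Psme1 and Psme2 lie 5912 bp apart and share 4 of the 6 replicated peaks of their loci. These 4 are the promoter peak of each gene, a further peak at the start side of Psme2 and the peak at an end of Emc9. Psmb5 and Psmb11, the other members with overlapping loci, share 1 of 3. Of the 5 peaks of the Psma3 locus, 2 lay in the flank away from all ends, with 9.97 in A and 6.62 in B for the nearer and 10.1 in A and 14.2 in B for the farther. In the flanks of Psmb10, replicated peaks lay at ends of Lcat and Slc12a4, with 11.6 in A and 12.9 in B, and at sites 12.8 and 19.5 kb outside the gene. Psmc6 had its peaks at its own start, at ends of Ero1a and Styx and at 1 flank site, and Psmd9 at its own start, at an end of Wdr66 and at 2 flank sites.

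The promoter windows of the members were searched for the 4 motifs marked in the sequences above. The ETS core CGGAAG was in 25 of the 45 member windows (55.6%), against 38.4% of the 7943 protein-coding windows overlapped by a replicated peak and 21.1% of all 21263 windows. In the 27 windows of standard subunits it was in 18 (66.7%). Among the 35 member windows that a replicated peak overlapped, the share was 57.1%. The match at Psmd11 can be read in its sequence, and that at Psmb11 lies in a window without a peak. Of the matches in member windows, 35 of 41 (85.4%) lay between 100 bases before and 50 after the start, against 69.6% over all windows. This share was not computed for windows overlapped by a replicated peak alone.

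The other motifs were each in fewer of the member windows than the ETS core. The antioxidant response element core TGACNNNGC, through which NFE2L1 raises proteasome genes when the proteasome is inhibited, was in 6 of 45 windows (13.3%), against 15.4% of windows with a replicated peak and 13.0% of all windows. The windows with it include those of Psmb5, printed above, Psmb6, Psmc6 and Psmd12. The CCAAT box was in 15 windows (33.3%), against 43.7% and 38.2%. The TATA box was in 3 windows (6.67%), against 5.02% and 12.6%. A match is a run of letters and no measure of binding, and in no member window did matches of different motifs overlap.

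**Figure D5:**
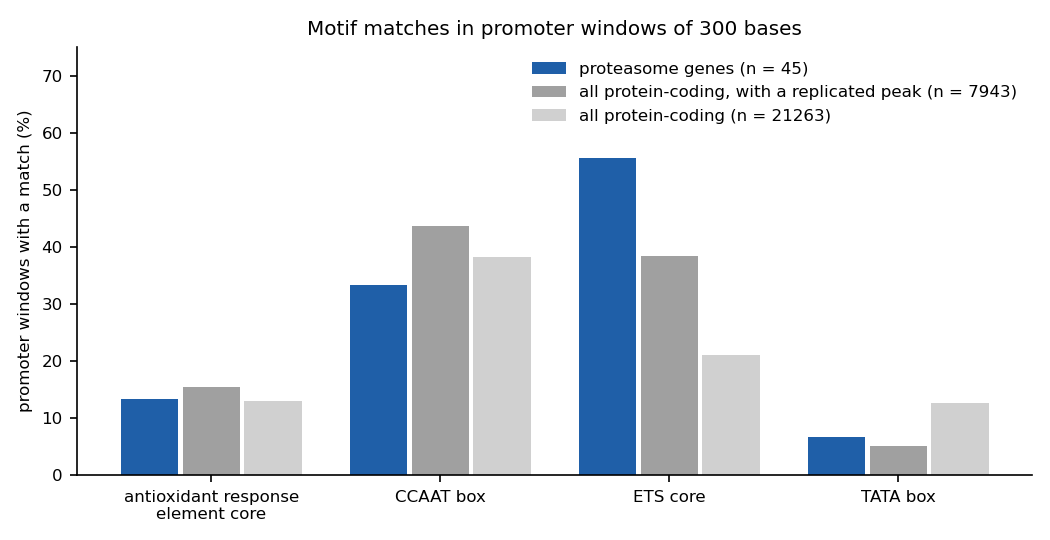
Share of 300-base promoter windows in percent with at least 1 match on either strand to each of 4 motifs, for the 45 windows of proteasome genes, for the 7943 protein-coding windows overlapped by a replicated peak and for all 21263. Proteasome windows have the highest bar for the ETS core (55.6%, against 38.4% and 21.1%) and not for the CCAAT box (33.3%, against 43.7% and 38.2%).

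Most genes that work with the proteasome were open at an end as well. Of 30 such genes, 29 were matched and 27 of these (93.1%) had a replicated gene-end peak, against the 41.9% of all protein-coding genes, and the median fold enrichment was 15.2 in A and 14.2 in B. Nfe2l1, which encodes the factor that restores proteasome levels, had 20.7 in A and 15.6 in B. Ddi2, which encodes the protease that activates it, had 12.9 in A and 6.69 in B. Vcp, which encodes the segregase that hands substrates to the proteasome, had 19.8 in A and 18.5 in B. Pomp, which encodes the core's maturation factor, had 13.9 in A and 13.8 in B. Adrm1, which encodes a ubiquitin receptor of the cap, had 17.2 in A and 14.2 in B. Ubb, a polyubiquitin gene, had 8.01 in A and 12.2 in B. Ecpas had no entry of either list at its ends.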

How the data were processed

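Per the labels' protocols, nuclei were dounced out, gradient-purified and sorted, and libraries were made with Tn5 transposase. The submitters' processing notes name MACS2, HOMER, STAR 2.7.0, bedtools, Picard and SAMtools, with no role or order, and build mm10. A shift of reads for Tn5 and the cleaning of the lists: not given in the sources used here. Peaks were deposited by the authors as 1 list per library, not pooled, and each list holds a score, a fold enrichment (a linear ratio), −log10 p and −log10 q values and a summit. The deposited score was not used further. The lowest deposited −log10 q was 3.04 for A and 3.00 for B. Nothing is scaled between A and B, so fold enrichment ranks peaks within a list.

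Gene spans came from a RefSeq table of GRCm38.p6, the assembly of mm10. It holds no strand, so both ends of a gene count. RefSeq promoter windows gave the start and strand of 41 members and printed 300 bases each, and 8 members, Psmb7 and Psma8 among them, have no window here. Entries of A and B that overlap by at least 1 bp are replicated, and the entry of A gives the coordinates. "Strongest" means the highest fold enrichment in A. A percentage of entries equalled or exceeded refers to fold enrichment within that list. Shares of a class have Wilson 95% intervals. With 2 samples of 1 group no test was made.

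Members and lists were chosen with earlier results of these data known. Named are all tissue-restricted subunits, all members without a replicated gene-end peak, the extremes of each class, the fullest loci and the pairs with overlapping loci. The other members and related genes given with values were chosen after their values were seen. Paaf1, of the related genes, was not analysed here, and not every related gene is reported here by name. The overlap and placement steps were tested on simulated data. Alternatives changed the overlap, peak threshold, windows and flanks, or used 1 list alone. Counting gene ends or annotated starts was added after the data were seen. Software was matplotlib 3.10.9, statsmodels 0.14.6, scipy 1.17.1, pandas 2.3.3 and numpy 2.4.6 under Python 3.11.15.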

Additional observations from a re-analysis of the deposited data

How the results depend on the processing

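The counts depend most on the peak threshold. With only the 10000 entries of each list with the highest −log10 q, a replicated gene-end peak was present at 19 members (38.8%, against 23.2% of all genes), 14 standard subunits and 15 related genes, 27 members had one in the locus, and 37 distinct replicated peaks lay in member loci, against 88 with all entries. With entries above the median −log10 q of their list, 29 members (59.2%, against 31.1% of all genes) had a replicated gene-end peak, and 54 peaks lay in member loci. The loci held 41 peaks with the gene body alone and 154 with flanks of 50 kb. Gene-end windows of 2500 bp brought the tissue-restricted subunits to 1 of 3, through Psmb10, and in the 9 other settings the count was 0. Using A or B alone gave 40 to 42 members, 28 to 29 standard subunits, 0 tissue-restricted subunits, 27 to 28 related genes, 46 to 47 members with a peak in the locus and 94 to 117 locus peaks. A stricter overlap, narrower windows, the nearest end only, annotated starts only, gene ends or starts, flanks of 5 kb and pieces of a peak counted once kept each count within 1.5 times its value. No paired analysis was possible because A and B are samples of 1 group. The lists give no depth, so a missing entry, as at Psmc5 in B, shows only that no peak was called there.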

Other observations

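The fold enrichment of the strongest gene-end peak was higher in A than in B at 31 of the 39 proteasome genes with such a peak (79.5%), against 67.8% of the 9180 genes with one, and the median ratio of A over B was 1.27 against 1.11. By class it was higher in A at 7 of 7 20S beta subunits, 10 of 11 19S non-ATPases, 5 of 6 20S alpha subunits, 2 of 4 19S ATPases and 3 of 6 assembly chaperones. The strongest peak was chosen by its value in A, for the members and for all genes alike, and the lists are not scaled to each other. What moves the values between the lists was not tested.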
